A study of Mus musculus with 36 samples.

Results

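The following 10 genes of the adaptor layer of cartilage matrix were followed, namely the matrilins Matn1, Matn2, Matn3 and Matn4, the thrombospondins Comp, Thbs1, Thbs2 and Thbs3, and the small matrix proteins Chad and Ucma. They were chosen by name. For each gene the transcript with the highest mean count over the 12 RNA libraries was used, which gave 10 of the 23071 genes with a symbol, or 13 of 30048 RefSeq transcripts before that choice. Matn4 had 2 transcripts, Ucma had 3 and the other members had 1. All 10 passed the filter on low counts at both time points.

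The tissue was knee articular cartilage of male C57BL/6J mice, operated at 12 weeks of age. The right knee underwent DMM, a cut of the ligament that holds the medial meniscus, which leads to post-traumatic OA, and the left knee of the same mice was not operated and served as control. At 4 weeks and again at 12 weeks of disease, cartilage of 3 knees was pooled for each of 3 control and 3 DMM libraries for RNA-seq, and likewise for the methylation samples. No sham-operated or untouched mice are among the groups, so the control limb shares the animal and its surgery with the DMM limb, and weeks after surgery cannot be told apart from age or from the day of processing.

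Matrilins and thrombospondins are oligomeric glycoproteins that bridge the collagen fibrils and the proteoglycans of the extracellular matrix. COMP, also called thrombospondin 5, binds collagens II and IX and matrilins and catalyses fibril assembly, and matrilin 1 and matrilin 3 are typical of growth plate and other hyaline cartilages. Thrombospondins 1 and 2 are trimers that act on cells through receptors such as CD36 and CD47 and inhibit angiogenesis, and chondroadherin (Chad) is a leucine-rich repeat protein that binds collagen and integrins. UCMA is a small, vitamin K-dependent Gla protein of chondrocytes.

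The 3 stretches of gene bodies are shown first because their neighbouring cytosines differed between limbs at 12 weeks. They were picked after their values were seen. They are the sequences around groups of neighbouring cytosines, read from GRCm38.p6 on the strand of the gene, with capitals for each CG that holds a measured cytosine. The Matn2 stretch lies in intron 10 at chr15:34412213-34412313, the Comp stretch is in exon 17 at chr8:70381253-70381411, and the Thbs1 stretch is the first 300 bases of the measured group in exon 3 at chr2:118113019-118113318.
Matn2 intron 10: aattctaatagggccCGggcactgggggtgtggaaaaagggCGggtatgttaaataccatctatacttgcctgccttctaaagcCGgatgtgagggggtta
Comp exon 17: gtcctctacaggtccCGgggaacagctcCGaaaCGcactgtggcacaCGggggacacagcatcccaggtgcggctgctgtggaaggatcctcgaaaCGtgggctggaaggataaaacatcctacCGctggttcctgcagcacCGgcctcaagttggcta
Thbs1 exon 3: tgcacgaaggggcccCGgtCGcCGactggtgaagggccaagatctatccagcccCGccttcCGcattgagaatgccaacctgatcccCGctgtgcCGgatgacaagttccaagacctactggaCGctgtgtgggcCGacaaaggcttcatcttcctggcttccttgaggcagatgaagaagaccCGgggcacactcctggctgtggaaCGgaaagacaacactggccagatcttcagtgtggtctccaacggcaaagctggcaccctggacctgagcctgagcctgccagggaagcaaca

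The promoters differed in CG content. The 250 bases before the transcript start are given, with each CG in capitals, for the abundantly expressed Chad, for Matn3, which had almost no methylation there, and for Thbs3, which had the smallest adjusted p of the members for RNA at 12 weeks. The windows are chr11:94564797-94565046 for Chad and chr12:8947679-8947928 for Matn3, both on the plus strand, and chr3:89214930-89215179, plus strand, for Thbs3, from RefSeq on GRCm38.p6.
Chad: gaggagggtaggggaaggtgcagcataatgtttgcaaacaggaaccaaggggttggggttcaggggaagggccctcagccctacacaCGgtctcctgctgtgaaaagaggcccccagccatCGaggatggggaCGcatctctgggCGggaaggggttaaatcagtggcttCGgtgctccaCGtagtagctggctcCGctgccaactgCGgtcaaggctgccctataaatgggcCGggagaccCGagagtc
Matn3: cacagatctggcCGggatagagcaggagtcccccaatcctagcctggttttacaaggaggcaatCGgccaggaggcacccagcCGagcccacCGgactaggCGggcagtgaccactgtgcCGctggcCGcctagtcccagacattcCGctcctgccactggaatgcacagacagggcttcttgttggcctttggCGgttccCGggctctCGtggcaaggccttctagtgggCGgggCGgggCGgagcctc
Thbs3: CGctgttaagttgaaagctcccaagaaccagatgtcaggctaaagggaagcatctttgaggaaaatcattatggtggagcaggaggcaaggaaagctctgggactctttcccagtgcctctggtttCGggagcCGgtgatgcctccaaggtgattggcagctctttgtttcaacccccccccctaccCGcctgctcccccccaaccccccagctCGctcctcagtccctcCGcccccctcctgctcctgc

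Of the 10 members, 7 matched the RefSeq promoter table. Their windows held 14 CG in Matn3 and in Matn4, 10 in Chad, 6 in Thbs3, 4 in Matn1 and in Ucma and 3 in Thbs2, against a median of 6 over 32851 such windows. The MspI site CCGG, whose digestion decides which cytosines were measured, occurred in 6 of the 7 windows at least 1 time, in Matn1 not at all, and in 47.1% of all windows. TATAAA, searched on both strands and so also as TTTATA, was in 12.4% of all windows. It was found 28 bases before the start of Chad and 126 bases before that of Thbs2, and the letters were not in the other 5 windows.

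RNA levels are given as CPM, which are counts relative to the library total, after TMM scaling. The library totals were 47843461 to 50066012 counts in control and 33105311 to 42964188 in DMM limbs at 4 weeks, and 35284404 to 62737656 and 27706547 to 47118148 at 12 weeks. Chondrocyte markers were present in every library, with Col2a1 between 356 and 1624 CPM and Acan between 192 and 875 CPM, and markers of other tissues varied beside them. Over the 15 chondrocyte genes the summed level was 9856 to 24185 CPM in control and 9125 to 10513 CPM in DMM limbs at 4 weeks, and 5565 to 16389 and 9729 to 17158 CPM at 12 weeks. Relative to the libraries of the same group, control replicate 3 held the lowest sum at both time points. The 14 skeletal muscle genes were all lower in DMM at 4 weeks, with sums of 6697 to 24948 CPM in control and 649 to 4104 CPM in DMM limbs, and ranged from 104 to 17246 CPM within the 12-week libraries. In these pooled tissues, fewer cells of a type and less RNA per cell cannot be told apart. A level relative to the 15 chondrocyte genes was also computed for each member, as its log2 CPM minus the mean log2 CPM of those genes. It does not tell fewer cells from less RNA per cell. A difference on this scale can also come from a change of the chondrocyte genes themselves.

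**Figure D1:**
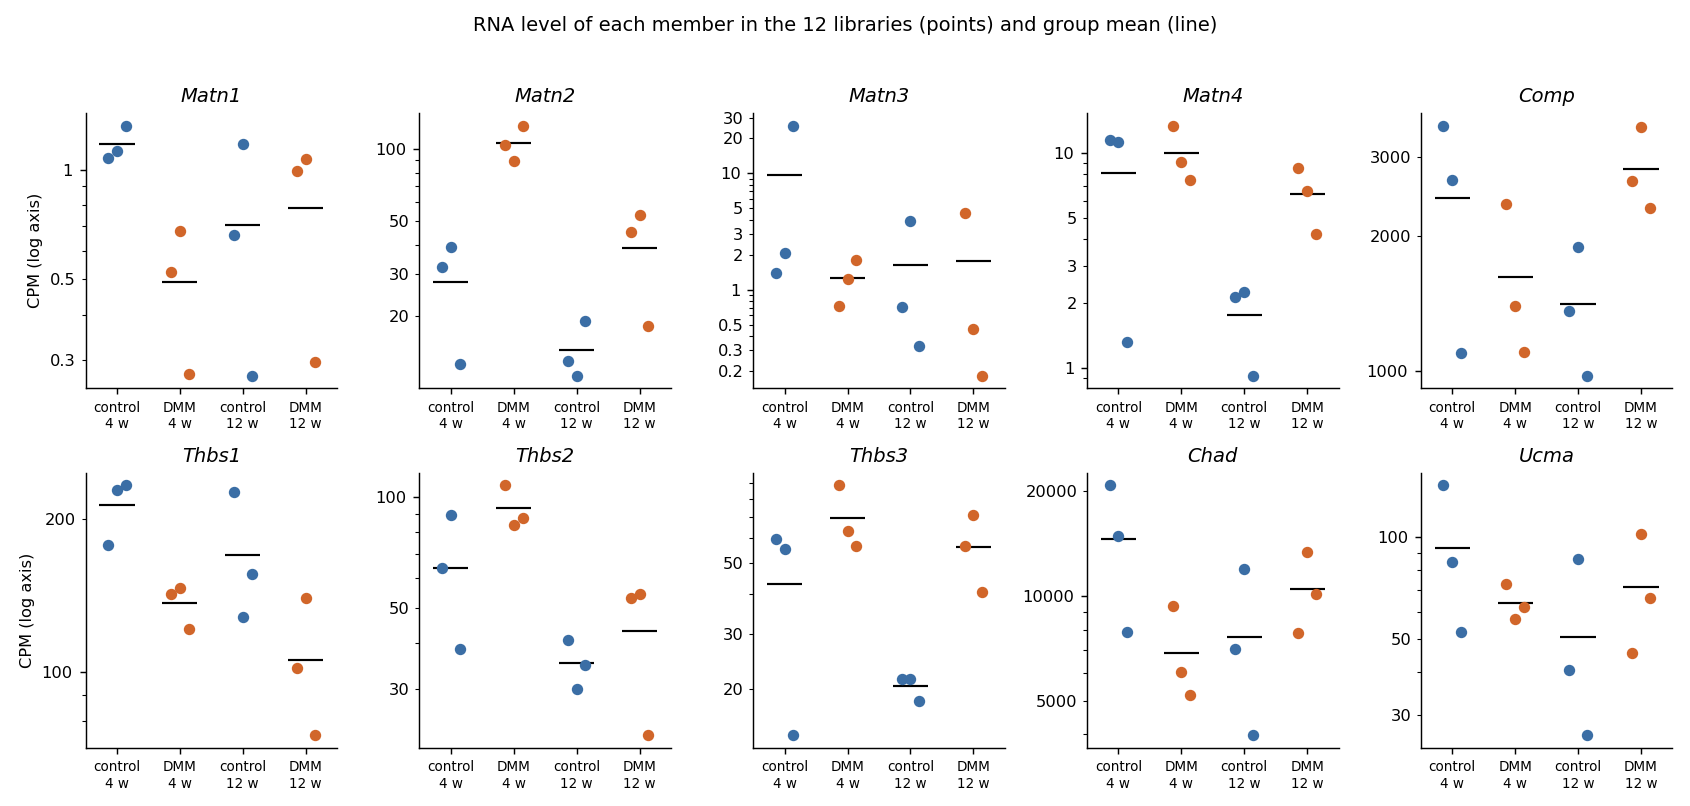
RNA level of the 10 members in each of the 12 libraries (points) with the mean of each group of 3 (line), in CPM on log axes that differ between panels. Matn2 at 4 weeks and Comp, Matn4 and Thbs3 at 12 weeks are above control in every DMM library, while Matn1 and Thbs1 at 4 weeks are below it.

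Levels were compared between genes only per kilobase of transcript. Chad stood first in all 4 groups, with 8639 ± 3831 CPM per kb in control limbs at 4 weeks (SD, n = 3) and 4084 ± 1313 in DMM limbs (SD, n = 3). Comp was second in all 4, with 998 ± 505 and 666 ± 269 CPM per kb in the same groups (SD, n = 3), and Ucma came next, with 105 ± 51.1 and 72.5 ± 9.08 (SD, n = 3). The libraries of these 3 genes did not overlap with each other in any group. Thbs1, Thbs3, Thbs2 and Matn2 followed at 4.12 to 36.3 CPM per kb, and most of these neighbours had overlapping ranges. Matn2 ranked below the 3 thrombospondins Thbs1, Thbs3 and Thbs2 in control limbs at both time points, at 7.95 and 4.12 CPM per kb, but came next after Ucma in DMM limbs at 4 weeks, at 30.2 ± 5.17 CPM per kb (SD, n = 3), where its libraries lay above those of Thbs1. Matn4, Matn3 and Matn1 came last in every group, and Matn1 was lowest at 0.246 to 0.586 CPM per kb.

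The first comparison asked which adaptor genes differ between the DMM and the control limb at the early time point. At 4 weeks, 6 of the 10 members were lower and 4 higher in DMM limbs, with a median log2 fold change of -0.55 against -0.03 over all 21140 transcripts tested. None passed an adjusted p of 0.05 in edgeR's quasi-likelihood test, which called 0.0757% of all transcripts. An unadjusted p under 0.05 was found for 5 of the 10 members, 1 higher (Matn2) and 4 lower (Matn1, Matn3, Thbs1 and Chad), against 13.7% of all transcripts. By DESeq2, which called 3.47% of its transcripts, 1 member passed. The 3 DMM libraries lay above the 3 control libraries for 1 member and below for 2, against 10.8% and 10.4% of all transcripts.

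Matn2, the broadly expressed matrilin of skin, tendon and other connective tissues, was the member with the highest fold change in DMM limbs at 4 weeks. Control libraries held 32.3, 39.1 and 12.6 CPM and DMM libraries held 104, 89.4 and 126 CPM. The groups did not overlap, and the lowest DMM library was above the highest control library. The difference was 3.81-fold, a log2 fold change of 1.93 (SE 0.38), with an adjusted p of 0.197 by edgeR and 0.000215 by DESeq2. Without control replicate 3, the lowest control library in the sum of chondrocyte genes, it was 1.57 on the log2 scale with an edgeR adjusted p of 0.027. That library's chondrocyte sum of 9856 CPM lay within the DMM range, and it was also the lowest control library in tendon and ligament genes (151 CPM). The fit without it called more transcripts over all genes than the main fit (see the closing section). Relative to the chondrocyte genes Matn2 was higher by 2.48 on the log2 scale (exact permutation test, two-sided p = 0.1, the smallest that 3 against 3 can give), and 23.5% of all transcripts were separated upwards on that scale.

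Beside this gene, markers of tendon and ligament and of fibroblasts and synovium were higher in the same libraries. All 5 tendon and ligament genes had a higher mean in DMM limbs at 4 weeks (median log2 fold change 1.35), their sum ranging from 151 to 466 CPM in control and from 749 to 1083 CPM in DMM limbs, and of the defining markers Tnmd was 1.10 to 3.37 CPM in control and 8.12 to 67.9 CPM in DMM limbs. Of the 8 fibroblast and synovium genes 7 were higher (median 0.93), with sums of 2227 to 4178 and 4140 to 6868 CPM. No gene of either list was at 0 in all libraries, and none passed an adjusted p of 0.05 by edgeR. By DESeq2, which called Matn2, 2 of the tendon and ligament and 3 of the fibroblast and synovium genes were called, all higher. Higher means were also found for all 5 macrophage genes (median 0.80, sums of 335 to 596 and 550 to 1011 CPM) and for 7 of the 9 osteoblast and osteocyte genes (median 0.43, sums of 3936 to 6469 and 7553 to 8715 CPM), none called by edgeR and 1 of the latter list by DESeq2. The part of these markers in the Matn2 difference was not tested.

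Matn1 and Matn3 had lower means in DMM limbs and did not pass the adjusted threshold. Matn1, the matrilin of growth plate and tracheal cartilage, was 1.08, 1.12 and 1.32 CPM in control libraries and 0.524, 0.68 and 0.274 CPM in DMM libraries at 4 weeks. These values rest on 46 to 71 counts in control and 9 to 30 counts in DMM limbs, and the groups did not overlap. The log2 fold change was -1.24 (SE 0.40, adjusted p = 0.300, edgeR). Relative to the chondrocyte genes the limbs overlapped for Matn1, with a difference of -0.84 (exact permutation test, two-sided p = 0.2). Matn3, mutated in a form of multiple epiphyseal dysplasia, was 1.38, 2.05 and 25.6 CPM in control libraries and 0.728, 1.22 and 1.8 CPM in DMM libraries. Its log2 fold change of -2.98 (SE 1.08, adjusted p = 0.324, edgeR) was set by control replicate 3, with 1376 counts, and was -0.47 without that library. Matn4, found in many tissues, did not separate, with 11.5, 11.3 and 1.32 CPM in control and 13.4, 9.13 and 7.47 CPM in DMM libraries (log2 fold change 0.33, SE 0.66, adjusted p = 0.821, edgeR). Control replicate 3 was the low one here, and without it the sign turned to -0.20.

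Among the thrombospondins, Thbs1 alone separated between limbs at 4 weeks. This trimeric thrombospondin, which also activates latent TGF-beta, was 177, 228 and 232 CPM in control libraries and 142, 146 and 122 CPM in DMM libraries. Each DMM library lay below each control library. The ratio was 0.642, a log2 fold change of -0.64 (SE 0.21, adjusted p = 0.300, edgeR). Platelets store thrombospondin 1, and the 6 platelet and megakaryocyte genes summed to 426 to 784 CPM in control and 358 to 802 CPM in DMM limbs at 4 weeks. Their part in the Thbs1 difference was not tested. Relative to the chondrocyte genes the limbs overlapped for Thbs1, with a difference of -0.21 (exact permutation test, two-sided p = 0.5).

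Comp was 3512, 2657 and 1096 CPM in control and 2350, 1393 and 1103 CPM in DMM libraries at 4 weeks. The range of the control libraries took in all DMM libraries, and the log2 fold change was -0.57 (SE 0.48, adjusted p = 0.560, edgeR), close to that of the chondrocyte genes, whose median was -0.60. Thbs2, a trimer that shapes collagen fibrils, was 64.1, 89.4 and 38.7 CPM against 107, 84 and 87.6 CPM (log2 fold change 0.54, SE 0.29, adjusted p = 0.411, edgeR). Thbs3, a pentamer like COMP, was 59.6, 55.5 and 14.3 CPM against 88.3, 63.4 and 56.6 CPM (log2 fold change 0.70, SE 0.47, adjusted p = 0.479, edgeR). Both overlapped between limbs on the CPM scale. Relative to the chondrocyte genes, Thbs2 and Thbs3 were higher in every DMM library, by 1.03 and 1.33 on the log2 scale (both with an exact permutation p of 0.1, two-sided, the smallest possible). With Matn2 these were 3 of the 10 members, and 23.5% of all transcripts were separated upwards on this scale.

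The limbs overlapped for Chad and for Ucma. Chad was 20754, 14891 and 7897 CPM in control libraries and 9360, 6041 and 5182 CPM in DMM libraries at 4 weeks. Control replicate 3 lay below the highest DMM library, and the log2 fold change was -1.07 (SE 0.46, adjusted p = 0.361, edgeR). Ucma was 142, 84.5 and 52.6 CPM against 72.9, 57.3 and 62 CPM (log2 fold change -0.53, SE 0.33, adjusted p = 0.452, edgeR). Relative to the chondrocyte genes the difference was -0.60 for Chad and -0.01 for Ucma, and both overlapped between limbs. Skeletal muscle RNA was higher in the control limbs of this time point, as given above, and with a muscle score as covariate the signs of Comp, Chad and Ucma turned, to 0.84, 0.13 and 0.42. That score, the mean log2 CPM of the muscle genes, was 8.21 to 10.2 in control and 4.95 to 7.31 in DMM limbs. It did not overlap between limbs, so its effect and that of DMM cannot be told apart in these libraries.

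**Figure D2:**
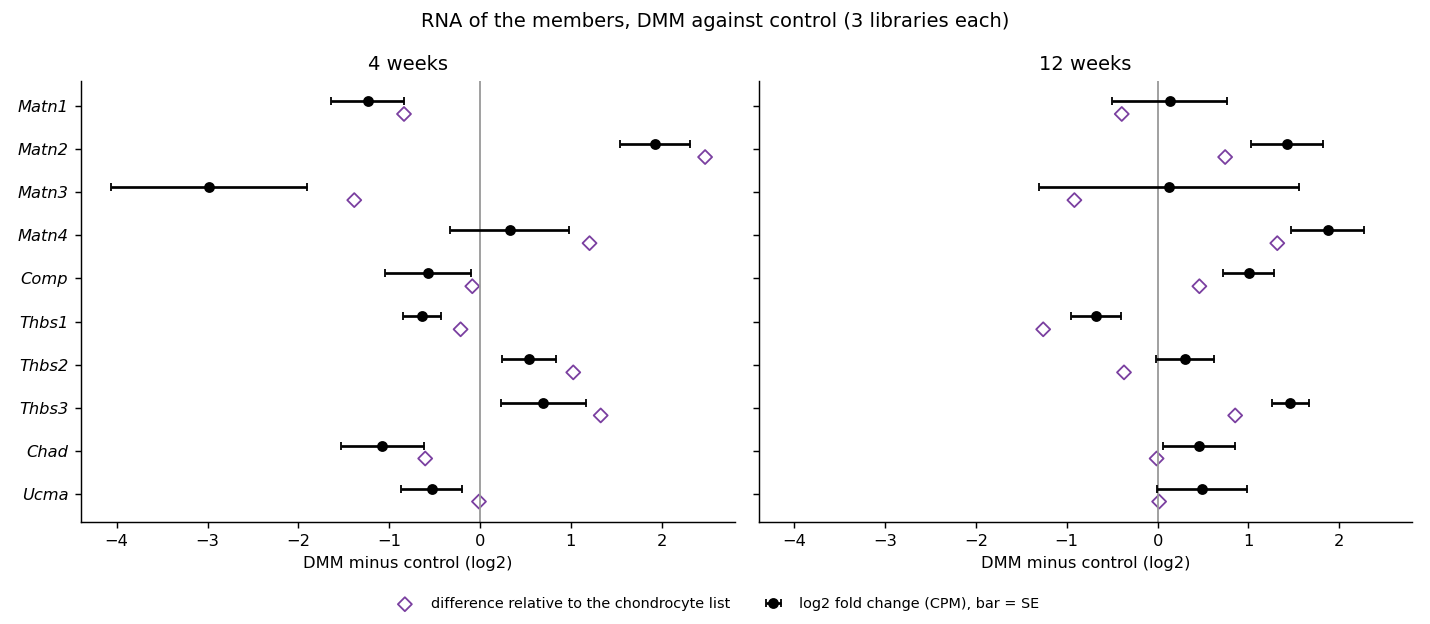
Difference between DMM and control limbs for each member at 4 weeks (left) and 12 weeks (right) on the log2 scale, as the edgeR fold change with its standard error (black) and as the difference of the level relative to 15 chondrocyte genes (open diamonds). By fold change 6 of the 10 members lie left of 0 at 4 weeks and 9 lie right of it at 12 weeks, while 5 of the 10 diamonds lie left of 0 at 12 weeks. Matn2, Matn4 and Thbs3 are on the right at both time points by both measures, and Thbs1 is on the left.

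The same comparison was made for established disease. At 12 weeks, 9 of the 10 members were higher in DMM limbs and 1 lower, with a median log2 fold change of 0.47 against 0.01 over all 21010 transcripts tested. None passed the adjusted threshold in edgeR, which called 0.00476% of all transcripts, 1 in number. An unadjusted p under 0.05 was found for 5 members, higher for Comp, Matn2, Matn4 and Thbs3 and lower for Thbs1, against 16.3% of all transcripts. By DESeq2 these 4 higher members passed an adjusted p of 0.05, against 4.26% of the transcripts it tested. With the replicate number as a block, edgeR called 3 members, Comp, Matn4 and Thbs3, all higher, and 734 of 21010 transcripts (see the closing section). The limbs did not overlap, with DMM higher, for Comp, Matn4 and Thbs3, against 10% of all transcripts, and none was separated downwards, against 8.85%. The chondrocyte genes had higher means in DMM limbs at this time, 15 of 15 with a median of 0.54, and were lower in 10 of 15 at 4 weeks. On the scale relative to these genes the same 3 members stayed separated upwards, and 1.16% of all transcripts did.

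Thbs3 came nearest to the threshold. It was 21.5, 21.5 and 18.3 CPM in control libraries and 56.6, 71.4 and 40.7 CPM in DMM libraries. The groups were far apart, with the control libraries close together and the lowest DMM library above them all. The difference was 2.76-fold, a log2 fold change of 1.46 (SE 0.21), with an adjusted p of 0.0643 by edgeR and 1.42e-07 by DESeq2. The edgeR adjusted p was 0.0377 with no filter on low counts, 0.033 without control replicate 2 and 0.013 without DMM replicate 3, and reached 0.453 when other libraries were left out. Over all genes, the fit with no filter called 56 transcripts against 1 in the main fit. The number called also changed widely with the library left out (see the closing section). Relative to the chondrocyte genes the difference was 0.85 on the log2 scale (exact permutation test, two-sided p = 0.1, the smallest possible).

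Comp was 1360, 1891 and 977 CPM in control and 2651, 3490 and 2302 CPM in DMM libraries at 12 weeks. All 3 DMM libraries were above all control libraries. This was a 2.01-fold difference, or a log2 fold change of 1.004 (SE 0.28, adjusted p = 0.221 by edgeR and 0.00996 by DESeq2). The edgeR adjusted p was 0.048 without control replicate 2, a fit that also called more transcripts over all genes than the main fit (see the closing section). After subtracting the chondrocyte genes, 0.46 remained on the log2 scale (exact permutation test, two-sided p = 0.1, the smallest possible).

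Matn4 was 2.13, 2.26 and 0.924 CPM in control and 8.54, 6.7 and 4.21 CPM in DMM libraries. The libraries rest on 34 to 140 counts in control and 175 to 405 counts in DMM limbs, and did not overlap. The difference was 3.66-fold (log2 fold change 1.87, SE 0.40, adjusted p = 0.184 by edgeR and 0.000485 by DESeq2), and 1.32 on the log2 scale relative to the chondrocyte genes (exact permutation test, two-sided p = 0.1, the smallest possible).

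Matn2 was 13, 11.3 and 19.2 CPM in control and 44.9, 53.1 and 18.2 CPM in DMM libraries at 12 weeks. DMM replicate 3 fell within the control range and the other two lay above it. The log2 fold change was 1.43 (SE 0.40, adjusted p = 0.232 by edgeR and 0.0104 by DESeq2), and without DMM replicate 3 it was 1.77 with an edgeR adjusted p of 0.047. The number of transcripts called over all genes changed widely with the library left out (see the closing section). All 5 tendon and ligament genes were higher in DMM limbs (median 0.88), with sums of 173 to 359 CPM in control and 1155, 1235 and 618 CPM in DMM libraries, and Tnmd was 0.261 to 1.82 CPM in control and 6.89, 3.21 and 0.842 CPM in DMM libraries. The sum was lowest in DMM replicate 3 among the DMM libraries, and there it still lay above every control library. By the mean log2 CPM of the list, control libraries held 1.65, 1.96 and 2.98 and DMM libraries 4.19, 3.89 and 2.20. On that measure DMM replicate 3 lay within the control range. The hypertrophic chondrocyte genes were also higher, 4 of 4 with a median of 0.96, and so were 7 of the 9 osteoblast and osteocyte genes (median 0.39). Of the 8 fibroblast and synovium genes 5 were higher (median 0.91), with sums of 4142 to 8479 CPM in control and 5903 to 8370 CPM in DMM limbs that overlapped, while the mean log2 CPM of the list did not overlap, at 4.68 to 4.997 and 5.52 to 6.14. No gene of these lists passed the edgeR threshold, while DESeq2 called 1 tendon and ligament, 1 hypertrophic chondrocyte, 4 osteoblast and osteocyte and 4 fibroblast and synovium genes, all higher. Their part in the differences of Matn2, Matn4, Comp and Thbs3 was not tested.

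Thbs1 was the single member with a lower mean at both time points. At 12 weeks it was 225, 128 and 156 CPM in control and 102, 140 and 75.2 CPM in DMM libraries. DMM replicate 2 lay above control replicate 2, so the limbs overlapped. The ratio was 0.623 (log2 fold change -0.68, SE 0.27, adjusted p = 0.289, edgeR). Its difference relative to the chondrocyte genes was -1.26, and the limbs overlapped there too (exact permutation test, two-sided p = 0.2). Markers of blood, marrow and vessels had lower means beside it. These were 7 of 7 neutrophil genes (median -0.47, sums of 24426 to 41331 CPM in control and 19545 to 32242 CPM in DMM limbs), 7 of 7 erythroid genes (median -0.32, sums of 11096 to 15674 and 8209 to 13913 CPM) and 5 of 5 macrophage genes (median -0.41, sums of 399 to 511 and 297 to 416 CPM). Likewise 5 of 6 endothelium genes (median -0.51) and 4 of 6 platelet and megakaryocyte genes (median -0.21) were lower. None was called by edgeR and 1 erythroid gene by DESeq2, and their part in the Thbs1 difference was not tested.

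The remaining members did not separate at 12 weeks. Thbs2 was 40.8, 30.1 and 35 CPM against 53, 54.4 and 22.5 CPM (log2 fold change 0.30, SE 0.32, adjusted p = 0.644, edgeR). For Chad the values were 7014, 11925 and 3979 CPM against 7799, 13382 and 10148 CPM (log2 fold change 0.46, SE 0.39, adjusted p = 0.564, edgeR). Ucma held 40.7, 85.9 and 26.1 CPM against 45.7, 102 and 66 CPM (log2 fold change 0.49, SE 0.49, adjusted p = 0.635, edgeR). In both genes DMM replicate 2 and control replicate 2 were the high libraries of their limb, and the level relative to the chondrocyte genes differed by -0.01 and 0.02 between limbs. Matn1 was 0.664, 1.18 and 0.272 CPM against 0.991, 1.07 and 0.296 CPM (log2 fold change 0.13, SE 0.63, adjusted p = 0.934, edgeR). Matn3 was 0.711, 3.88 and 0.326 CPM against 4.6, 0.459 and 0.182 CPM (log2 fold change 0.13, SE 1.43, adjusted p = 0.974, edgeR), with 1 high library in each limb.

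Whether the effect of DMM differed between the time points was tested as an interaction. It passed the adjusted threshold for none of the members, nor for any of 21618 transcripts (0.0% by edgeR, and 16 transcripts but no member by DESeq2), and 2 members had an unadjusted p under 0.05 against 12.3% of all transcripts. These were Comp, whose fold change was 1.58 higher at 12 than at 4 weeks on the log2 scale (SE 0.59, adjusted p = 0.405, edgeR), and Chad, with 1.53 (SE 0.63, adjusted p = 0.405, edgeR). Lower means at 4 weeks and higher means at 12 weeks were thus given for both, and the difference was not shown.

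Each limb was also compared over time. In control limbs all 10 members were lower at 12 than at 4 weeks (median log2 fold change -0.90), and none passed the adjusted threshold, against 5.69% of all transcripts. Matn4 had the smallest adjusted p, 0.0633, at a log2 fold change of -2.17 (SE 0.64, edgeR), and by DESeq2 it passed with 0.00439. When control replicate 3 of 4 weeks was left out, 6 members passed by edgeR, which were Matn2, Matn4, Comp, Thbs2, Thbs3 and Chad, all lower at 12 weeks, and in that fit 21.4% of all transcripts were called. Marker genes of several cell types differed with the members. In control limbs 12 of the 15 chondrocyte genes were lower at 12 weeks (median log2 fold change -0.59), as were all 5 tendon and ligament genes (median -0.95) and all 14 skeletal muscle genes (median -1.27), with the sums given above for 4 and 12 weeks. On the scale relative to the chondrocyte list, 8 of the 10 members were lower at 12 weeks in control limbs. The differences were -1.31 for Matn3 and -1.003 for Matn4, from -0.23 to -0.06 for Chad, Ucma, Matn1, Matn2, Thbs3 and Thbs2, and 0.055 for Comp and 0.38 for Thbs1, and the time points overlapped in every member. All 7 neutrophil genes were higher (median 1.08), with sums of 8653 to 24787 CPM at 4 weeks and 24426 to 41331 CPM at 12 weeks. Lower means were also found for 6 of the 8 fibroblast and synovium genes (median -0.79) and for all 4 adipocyte genes (median -1.41). In DMM limbs, where 23.6% of all transcripts were called, 2 members fell from 4 to 12 weeks. Matn2 fell by 1.46 on the log2 scale (SE 0.43, adjusted p = 0.0294, edgeR), and Thbs2 fell by 1.10 (SE 0.34, adjusted p = 0.0340, edgeR), with no overlap between the time points in either. Both lost the call when any of 4 single libraries of the DMM limb was left out (adjusted p of 0.053 to 0.104), DMM replicates 2 and 3 of 4 weeks and DMM replicates 1 and 3 of 12 weeks, and Thbs2 also without DMM replicate 1 of 4 weeks. Beside these falls, 6 of the 8 fibroblast and synovium genes were lower at 12 weeks in DMM limbs (median -0.78), and edgeR called Pdgfra, Dpt and Dpp4, which were lower, and Col1a1 and Pi16, which were higher. The sum of the list was 4140 to 6868 CPM at 4 and 5903 to 8370 CPM at 12 weeks. All 5 macrophage genes were lower, 4 of them called (median -1.28, sums of 550 to 1011 and 297 to 416 CPM), and so were 6 of 6 endothelium genes, 3 of them called (median -0.90), and 4 of 4 adipocyte genes, 2 of them called (median -1.38, sums of 201 to 332 and 78.9 to 126 CPM). Of the 5 tendon and ligament genes 4 were lower (median -0.68), none was called by edgeR and 2, Tnmd and Kera, were called lower by DESeq2. Other lists had mostly higher means at 12 weeks in DMM limbs. Of the 15 chondrocyte genes 9 were higher (median 0.28), and edgeR called 5 of the list. Of the 4 hypertrophic chondrocyte genes 3 were higher (median 0.52, 1 called). All 14 skeletal muscle genes (median 1.004, none called) and all 7 neutrophil genes (median 0.62, 1 called) were higher. So were 5 of 9 osteoblast and osteocyte genes (median 0.33) and 4 of 6 platelet and megakaryocyte genes (median 0.20). The part of these markers in the differences over time was not tested. Comp and Chad also had higher means at 12 weeks in DMM limbs, by 0.80 (SE 0.42, adjusted p = 0.185, edgeR) and 0.61 (SE 0.45, adjusted p = 0.342, edgeR). The mean log2 CPM of the chondrocyte list in DMM limbs was 6.39 to 6.86 at 4 weeks and 6.56 to 7.14 at 12 weeks. A higher mean of this list lowers every level taken relative to it. When each level in DMM limbs was taken relative to the chondrocyte list, 5 members were separated downwards at 12 weeks, Matn2 by -1.84, Thbs2 by -1.46, Matn4 by -0.89, Thbs1 by -0.67 and Thbs3 by -0.57, and Comp was separated upwards by 0.60 (by two-sided exact permutation each had p = 0.1, the smallest that 3 against 3 allows). Over all transcripts on this scale 19.8% were separated downwards and 12.3% upwards. Of these 6 members, Matn2 and Thbs2 alone were also separated in CPM, where 42.3% of all transcripts were separated in either direction. The DMM limb was compared with the control limb above, so these contrasts share libraries with those.

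The genes that work with these proteins were read from 7 lists of 43 genes, all tested. At 4 weeks 28 were higher and 15 lower in DMM limbs. None was called by edgeR and 5 by DESeq2, which were Adamts12, Col12a1 and Bgn, higher, and Chadl and Itgb3, lower. The lowest were Chadl, a relative of chondroadherin (log2 fold change -1.48), Smoc2 (-1.17), a matricellular calcium-binding protein, and Cilp (-1.15), a cartilage intermediate layer protein of the superficial to middle zone. The highest were Adamts12 (1.57), a protease that cleaves COMP, and the fibril-associated collagens Col14a1 (1.33) and Col12a1 (1.17). At 12 weeks 37 of the 43 were higher and 6 lower. Again none was called by edgeR, and 5 by DESeq2, all higher, which were Bgn, Col14a1, Fn1, Thbs4 and Tnxb. DESeq2 called 11.6% of the partners at each time point, with 1 transcript per partner, against 3.47% and 4.26% of all transcripts it tested. The lists were chosen with earlier results of these data known, so these shares are a description. Itgb3 (-1.003), an integrin subunit that binds thrombospondins, Tnc (-0.55), tenascin C, and the aggrecanase Adamts4 (-0.43) were at the low end, and Col14a1 (1.62), Tnxb (1.21), which encodes a tenascin of loose connective tissue, and Adamts7 (1.08), another protease of COMP, at the high end. The adjusted p of these genes was 0.192 to 0.686 by edgeR.

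By list, the median log2 fold change at 4 and 12 weeks was -0.43 and 0.84 for the relatives Thbs4, Chadl and Vwa1, 0.21 and 0.78 for 9 collagens and proteoglycans, and -0.27 and 0.68 for 8 other matrix adaptor proteins. It was 0.21 and 0.18 for 8 receptors, 0.59 and 0.31 for 5 proteases, 0.30 and 0.48 for 5 Gla proteins and vitamin K enzymes and 0.16 and 0.08 for 5 endoplasmic reticulum chaperones. In the members' own families the medians were -0.46 and 0.78 for the matrilins, -0.02 and 0.65 for the thrombospondins with Comp, and -0.80 and 0.47 for Chad and Ucma.

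Between the time points edgeR called 4.65% of these partners in control limbs and 20.9% in DMM limbs, no more than the 5.69% and 23.6% of all transcripts. Chadl (log2 fold change -2.04, adjusted p = 0.0190, edgeR) and Col14a1 (-2.002, adjusted p = 0.0376) were lower at 12 than at 4 weeks in control limbs. In DMM limbs 3 were higher at 12 weeks, the collagen IX chain Col9a2 (1.43, adjusted p = 0.0290, edgeR), the large proteoglycan Acan (1.34, adjusted p = 0.0280) and Smoc1 (1.37, adjusted p = 0.0420). Lower at 12 weeks were Col14a1 (-1.72, adjusted p = 0.0253, edgeR), the thrombospondin receptor Cd36 (-1.34, adjusted p = 0.00807), the integrin subunit Itgb1 (-0.98, adjusted p = 0.00531), and the proteases Adamts5 (-0.999, adjusted p = 0.0245), Adamts12 (-1.68, adjusted p = 0.00546) and Mmp13 (-1.27, adjusted p = 0.0323). Acan and Col9a2 are also among the 15 chondrocyte genes. By DESeq2, 6 partners (14%) were called in control limbs, all lower, which were Chadl and Col14a1 with Adamts12, Itgav, Itgb1 and Sparc, against 13.9% of the transcripts it tested. In DMM limbs DESeq2 called 11 (25.6%, against 29.1%), the same 9 as edgeR with Itgav, lower, and Smoc2, higher.

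Patterns over the 12 libraries were compared by Pearson's r of log2 CPM over 15589 genes. The libraries share limbs, weeks and tissue make-up, so r is a description. Matn2 was most alike to Aspn (0.989), a leucine-rich matrix protein, 9430069I07Rik (0.987) and Mamdc2 (0.981). Thbs3 was most alike to Ecm1 (0.987), Dkk3 (0.977) and Pdlim4 (0.975), Thbs2 to Tspyl5 (0.978), Cped1 (0.972) and Arhgap22 (0.968), and Matn4 to Ndrg4 (0.976), Plcb1 (0.965) and Tgfb3 (0.965). For Comp the nearest were Slc38a3 (0.981), Gsn (0.975) and Cxxc5 (0.974), for Chad Hhipl2 (0.959), Ncmap (0.959) and Hoxc8 (0.950), and for Ucma Lypd6b (0.973), Bace2 (0.970) and Clec3a (0.963), a cartilage lectin. Lower values were found for Matn1, with Col4a6 (0.889), Pitpnm3 (0.881) and Guca1b (0.864), for Thbs1, with Dcp1a (0.880), Snx19 (0.876) and Nup98 (0.875), and for Matn3, with Plxna4 (0.837), Calcr (0.808) and Zfpm1 (0.805). Against the mean log2 CPM of the chondrocyte genes, r over the same 12 libraries was 0.888 for Ucma, 0.873 for Chad, 0.796 for Comp and 0.731 for Matn1. It was 0.593 for Matn4, 0.472 for Thbs3, 0.347 for Matn3, 0.254 for Thbs2, 0.152 for Matn2 and -0.01 for Thbs1.

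Methylation of the same genes was read from reduced representation libraries made with MspI, which cuts at CCGG, from DNA of different mice than the RNA. Oxidative bisulfite (oxBS) reads gave 5mC, and the bisulfite (BS) percentage minus the oxBS percentage gave 5hmC. Promoters ran from 1000 bases before to 500 bases after the start and gene bodies from there to the transcript end, over cytosines with at least 10 reads in all 6 samples of a time point. With at least 3 such cytosines, 8 promoters and all 10 bodies were tested. In most of these regions the measured cytosines differed between the time points. The Thbs2 body had 21 at 4 weeks and 7 at 12 weeks, and the Thbs1 promoter had 17 and 4. Ranges over the 12 samples join both sets of cytosines, so their width is not spread between samples alone. Matn1 and Ucma had at most 1 measured cytosine in the promoter.

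The promoters of most members had little methylation in either limb. Over the 12 samples the 5mC level was 0.153% to 0.886% for Thbs3, 0.344% to 1.09% for Matn2, 0.831% to 2.22% for Matn3, 0.240% to 4.27% for Thbs1 and 1.72% to 4.29% for Comp. Matn4 had means of 6.34% in control and 6.76% in DMM limbs at 4 weeks, and of 13.6% and 10.8% at 12 weeks. Thbs2 had 3.24% and 1.91% at 4 weeks and 6.97% and 5.48% at 12 weeks. Among all tested promoters, 86.4% were under 5% at 4 weeks. Chad, the member with the most RNA, had the highest promoter level of the 8, at 12.6%, 12.5% and 11.6% in control and 13.07%, 13.03% and 11.4% in DMM samples at 4 weeks, and 16.2%, 16.1% and 16.4% against 17.4%, 20.7% and 8.62% at 12 weeks. Its 13 measured cytosines in exon 1 had a mean of 17.8% in control at 4 weeks, and the 13 upstream of the start had 2.04%. None of the Chad promoter sequence printed above held a measured CG, whereas 13 of 14 did in Matn3. No member promoter passed the adjusted threshold at 4 weeks (0.0% of all promoters) or at 12 weeks (0.603%), and none had an unadjusted p under 0.05 at either time, against 3.59% and 10.4% of all promoters. All 8 overlapped between limbs at 4 weeks. At 12 weeks 2 of the 8, Matn3 and Thbs1, did not overlap, with DMM lower, against 10.8% of all promoters.

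**Figure D3:**
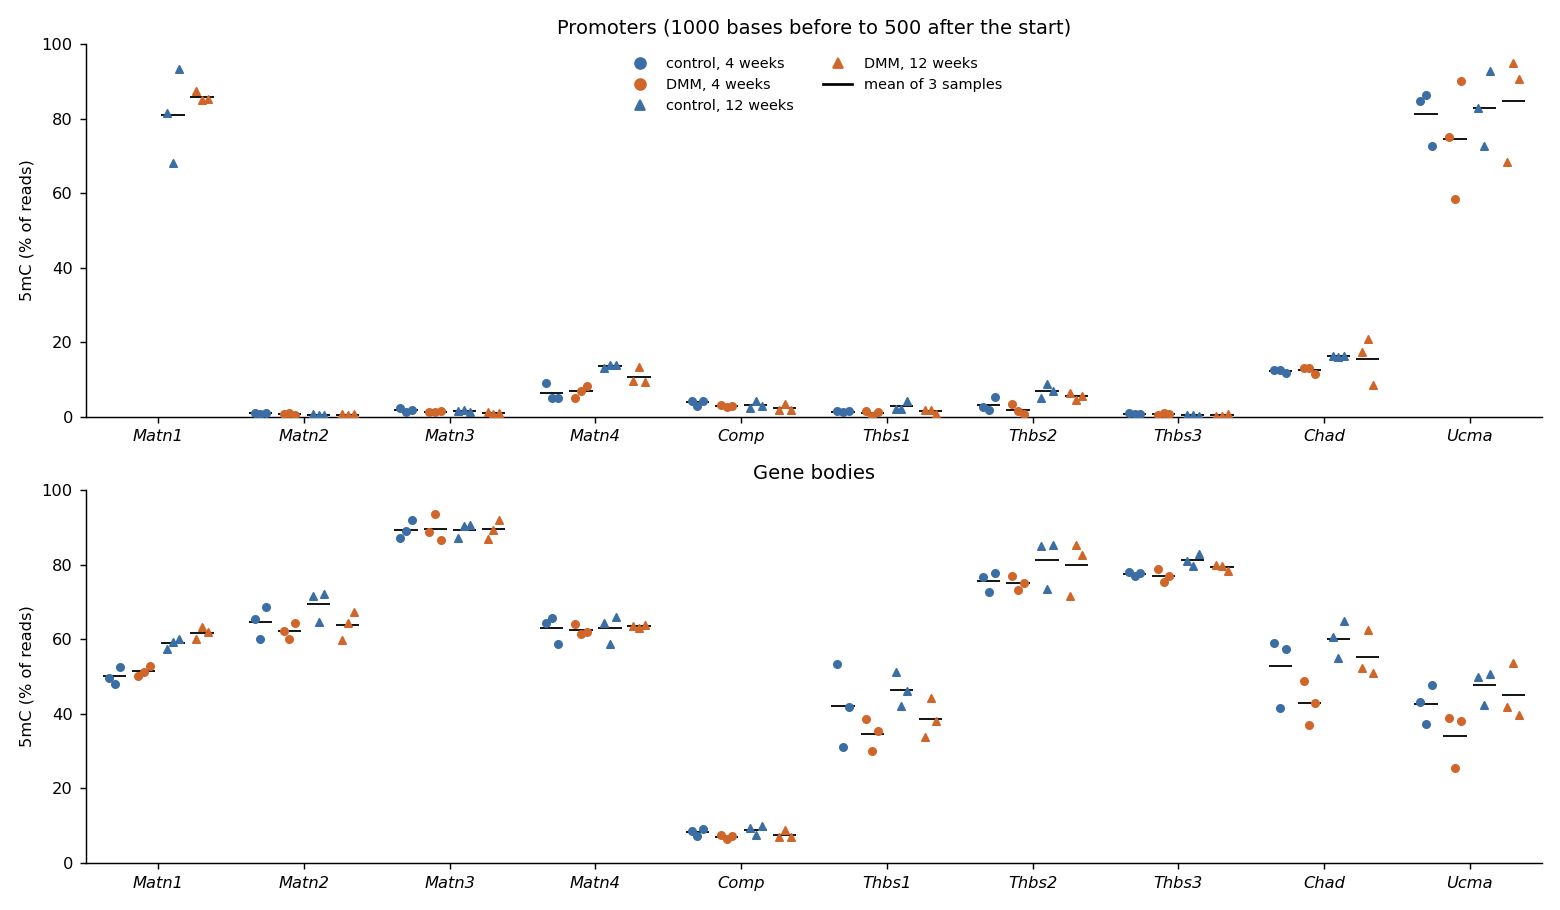
5mC level of the members in each sample, as percent of reads, in promoters (top) and gene bodies (bottom), with circles for 4 weeks, triangles for 12 weeks, blue for control, orange for DMM and a line for the mean of 3 samples. Apart from Matn1 and Ucma, which rest on 1 cytosine, promoters lie at or under 20.7%, and the body of Comp lies under 10% while the other bodies lie between 25.5% and 93.6%.

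Gene bodies ranged more widely. Matn3 had 86.5% to 93.6% 5mC over the 12 samples, Thbs3 75.3% to 82.8%, Thbs2 71.6% to 85.4%, Matn2 59.7% to 72.0%, Matn4 58.6% to 66.1% and Matn1 48.1% to 63.2%. Chad had 36.9% to 65.0%, Ucma 25.5% to 53.6% and Thbs1 30% to 53.2%, and the median of all gene bodies was 56.5% in control limbs at 4 weeks. Comp stood apart at 6.54% to 9.82%. Its measured cytosines were 160 at 4 weeks and 138 at 12 weeks, of which 145 and 122 were under 20%. Along Comp in control limbs at 4 weeks, 120 cytosines between 94 bases before and 1689 bases after the start had a mean of 2.38%, and 53 cytosines from exon 6 to exon 10 had 10.1%. The 5 in exon 13 had 73.0% and the 7 in exon 17 had 58.8%. In Thbs1 the level rose along the gene from 1.21% over 17 cytosines of exon 1 and intron 1 to 30.8% in exon 3, 60.9% around exon 9 and 76.9% around exons 20 and 21, as means of control samples at 4 weeks.

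**Figure D4:**
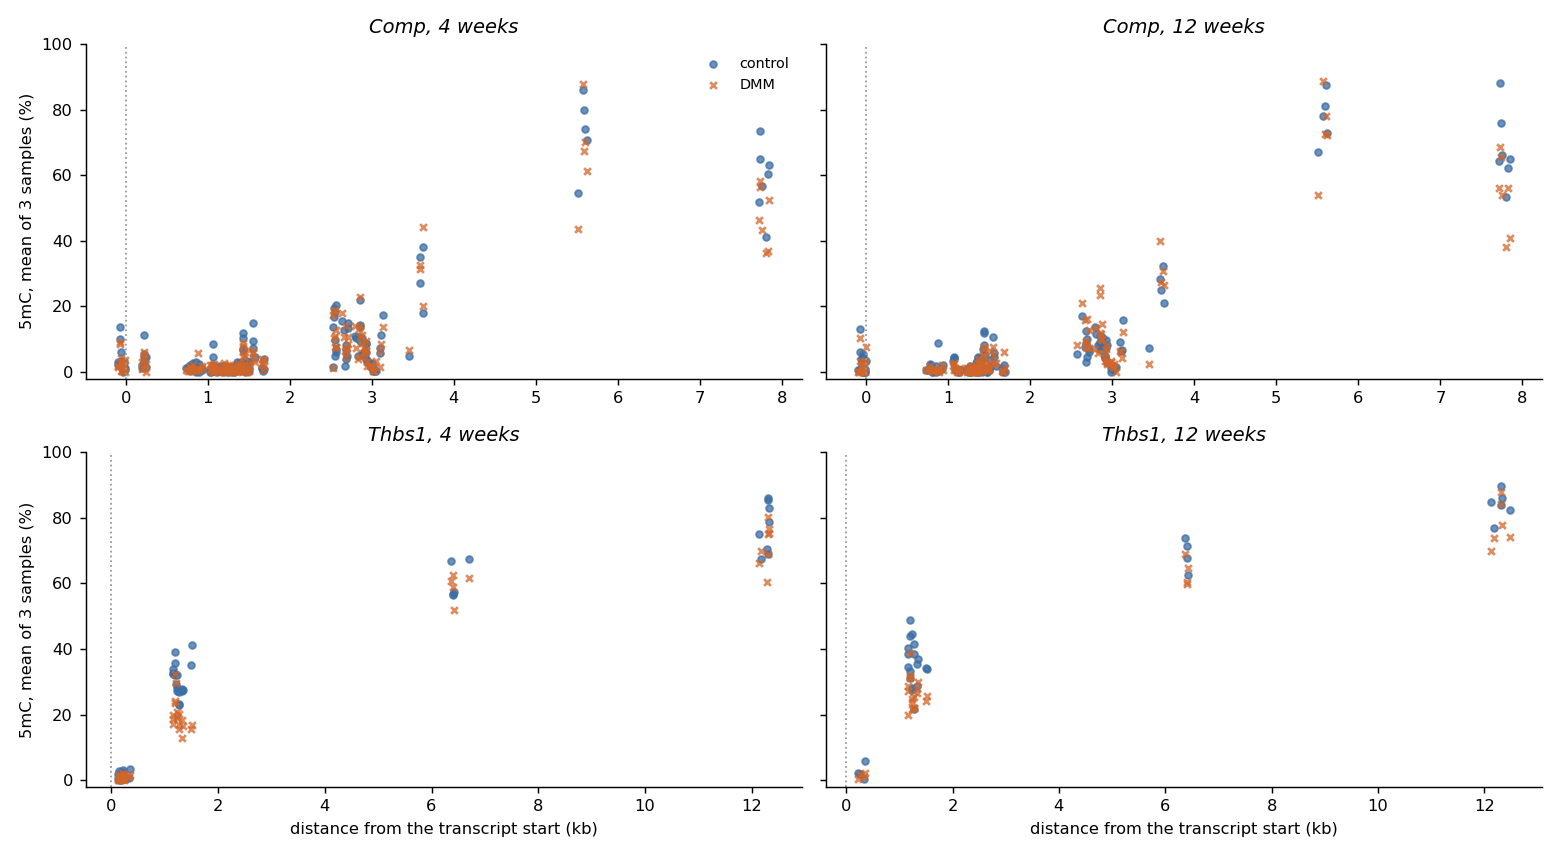
5mC level of single cytosines of Comp (top) and Thbs1 (bottom) by distance from the transcript start in kb, at 4 weeks (left) and 12 weeks (right), as the mean of 3 control (blue) and 3 DMM (orange) samples. Comp is low near its start and high in exons 13 and 17 at the right, and of the 18 cytosines of Thbs1 exon 3, 1158 to 1517 bases from the start, 16 are lower in DMM at each time point.

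None of the 10 bodies passed the adjusted threshold at 4 weeks, when no gene body did (0.0%), or at 12 weeks (0.799%). An unadjusted p under 0.05 was found for 1 member at each time point, against 2.95% and 15.8% of all bodies. At 4 weeks this was Comp, with 8.59%, 7.28% and 9.00% in control and 7.41%, 6.54% and 7.22% in DMM samples (log2 odds ratio -0.24, SE 0.11, adjusted p = 0.902, edgeR). At 12 weeks it was Thbs1, with 51.3%, 42.1% and 46.1% in control and 33.7%, 44.1% and 38.2% in DMM samples (log2 odds ratio -0.49, SE 0.18, adjusted p = 0.214, edgeR). Both overlapped between limbs. Thbs1 at 4 weeks was 53.2%, 31.2% and 41.8% in control and 38.5%, 30% and 35.5% in DMM samples, which also overlapped. With the replicate number as a block, edgeR called 816 of 14464 bodies at 4 weeks, with 2 members, Comp and Thbs1, both lower in DMM. At 12 weeks that fit called 0 bodies. The labels do not say that limbs of the same number share animals (see the closing section). Few cytosines were measured in Chad and Ucma, with 4 in each body at 4 weeks. Chad was 59.1%, 41.6% and 57.5% in control and 48.7%, 36.9% and 43.02% in DMM samples, a difference of -9.85 percentage points (adjusted p = 0.902, edgeR). Ucma was 43.2%, 37.2% and 47.8% in control and 38.8%, 25.5% and 38.1% in DMM samples, a difference of -8.64 percentage points (adjusted p = 0.902, edgeR). The limbs overlapped in both, and the median difference over all gene bodies was -0.65 percentage points. Lower means in DMM were found in 8 of the 10 bodies at 4 weeks and 7 at 12 weeks, and over all genes 67.1% and 71.5% of bodies were lower in DMM. Control replicate 2 and DMM replicate 1 of 12 weeks had less 5mC than the other samples over all cytosines, 25.1% and 24.8% against 29.9% to 31.98%.

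The groups of cytosines printed at the start were picked after their values were seen, and no test was made on them. In the Matn2 stretch of intron 10, whose first measured cytosine lies 105547 bases from the start, the mean of 4 cytosines at 12 weeks was 35.9%, 36.9% and 37.4% in control and 20.98%, 21.9% and 21.03% in DMM samples. All 4 cytosines were lower in DMM, with at least 21 reads each. At 4 weeks the same cytosines had 36.3%, 18.9% and 28.5% in control and 19.2%, 20.1% and 22.4% in DMM samples, so that control replicate 2 lay with the DMM samples. The 7 cytosines of Comp exon 17 had 61.9%, 67.9% and 73.7% against 56.1%, 56.7% and 50.0% at 12 weeks, and 73.0%, 46.8% and 56.5% against 48.4%, 44.0% and 48.9% at 4 weeks. They were separated at 12 weeks and overlapped at 4 weeks. In Thbs1 exon 3 the 18 cytosines had 39.7%, 32.5% and 34.7% against 24.2%, 28.9% and 27.4% at 12 weeks, and 42.1%, 17.9% and 32.5% against 24.9%, 12.8% and 21.8% at 4 weeks, again separated at the later time point alone. The reverse held for 5 cytosines of Comp exon 13, with 73.5%, 72.1% and 73.5% against 66.1%, 64.8% and 67.3% at 4 weeks, which were separated, and 76.8%, 73.8% and 81.5% against 69.6%, 73.9% and 75.6% at 12 weeks, which overlapped. Of all groups of at least 2 neighbouring cytosines in the members, 2 of 36 were separated downwards and 1 upwards at 4 weeks, and 7 of 37 downwards and 0 upwards at 12 weeks. Such groups over all genes were separated downwards in 6.22% and upwards in 3.19% at 4 weeks and in 16.6% and 4.87% at 12 weeks, so the members' counts lie near those of all genes. No single cytosine of a member differed by 25 percentage points or more between the limbs. Both Matn2 and Comp had higher mean RNA and Thbs1 lower mean RNA in DMM limbs at 12 weeks, in other animals.

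For 5hmC, member promoters and bodies were compared by exact permutation tests, in which 3 against 3 cannot go below p = 0.1. Promoter 5hmC of Chad at 4 weeks was 3.66%, 2.86% and 3.37% in control and -0.79%, -0.22% and -0.0003% in DMM samples, a separation downwards (exact permutation test, two-sided p = 0.1). Negative values arise where the oxBS percentage exceeds the BS percentage and mark no detectable 5hmC. Comp body 5hmC at 4 weeks was 5.25%, 5.79% and 4.01% in control and 6.73%, 9.09% and 6.27% in DMM samples, a separation upwards (exact permutation test, two-sided p = 0.1), and at 12 weeks 3.79%, 5.88% and 3.46% against 6.14%, 5.13% and 6.47%, which overlapped. Thbs3 body 5hmC at 12 weeks was 3.17%, 0.868% and 1.80% against 6.56%, 3.39% and 3.88%, also separated (exact permutation test, two-sided p = 0.1). The promoters of Matn4 and Thbs2 were separated at 12 weeks upwards and downwards, with means of 0.88% and 3.27% for Matn4 over 6 cytosines and of 2.16% and -0.48% for Thbs2 over 3. These are 5 of the 36 promoters and bodies compared over both time points. By region and time they are 1 of 8 promoters and 1 of 10 bodies at 4 weeks and 2 of 8 promoters and 1 of 10 bodies at 12 weeks. Over all genes 9.82% of promoters and 9.51% of bodies were separated in either direction at 4 weeks and 9.98% and 11.5% at 12 weeks, so the members' counts are read as no more than a description. The BS sample of DMM replicate 1 at 12 weeks was assigned by its label, which its deposited file contradicts in the replicate number, so the 12-week values of that replicate carry this doubt.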

How the data were processed

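RNA-seq was available for 12 libraries and RRoxBS for 12 samples in both an oxBS and a BS form, 36 labelled samples in all, assigned to limb, week and replicate by their labels. The deposited RNA values are raw counts per RefSeq transcript, which the authors made with FLEXBAR, STAR and featureCounts. The deposited RRoxBS values are coverage and the percent of reads with C and with T per CpG cytosine and strand, which the authors obtained after MspI digestion with their own pipeline, and the labels also name Bismark and CASAVA 2.17. The lowest coverage was checked to be 10 reads, and methylated reads are coverage times the percent of C.

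R 4.3.3 and edgeR 4.0.16 were used for the counts (robust quasi-likelihood fit, TMM, the package's filter for low expression, and a threshold of 0.05 on Benjamini-Hochberg adjusted p) over all transcripts, within each week or over all 12 libraries for contrasts of weeks. Log2 CPM used a prior count of 2. Promoter and body 5mC was fitted with the same package on methylated and unmethylated reads. DESeq2 1.42.0 and limma 3.58.1 gave alternatives, with Python 3.11.15 for the rest. Both edgeR fits were also run on simulated data with planted changes. The simulated spread was fixed and not taken from these libraries, so this does not show how the fits perform at their spread. Library depth ranged from 27706547 to 62737656 counts, and a median of 19 to 102 reads per cytosine. Replicate libraries differed by a chi-square of 48.7 to 440 per degree of freedom, so none was the same library counted again. This check alone cannot tell whether libraries share an RNA pool, while the paper describes a pool of knees for each sample.

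The members and gene lists were chosen with earlier results of these data known. All members are named, as are the partners called in any comparison, the 3 highest and 3 lowest partners per week and the 3 genes most alike to each member. Partners called by DESeq2 alone were named after their values were seen. Replicate numbers were not used to pair the limbs in the main fits, by a criterion given in the closing section that cannot exclude pairing. By the paper, cartilage of 3 knees was pooled into each RNA or DNA sample, and the labels do not say which mice entered which pool. The p-values measure the spread between these pools only.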

Additional observations from a re-analysis of the deposited data

How the results depend on the processing

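Depth limited Matn1, with 9 to 73 counts per library, and Matn3, with 8 counts in its lowest and 1376 in its highest library. Of the members' values recomputed under other settings, 1088 kept their direction and, where an adjusted p was given, their side of the threshold. Of the rest, 65 changed sign, 26 passed the threshold anew and 9 lost it. The cause of these changes was not tested. With DESeq2's size factors in edgeR, the number of members called was the same in every RNA comparison.

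For DMM versus control RNA at 4 weeks, edgeR called 16 transcripts. DESeq2 called 751 with 1 member (Matn2), and 1 fit of all 12 libraries called 35. No transcript was called with at least 10 counts in every library, with 1 transcript per gene or with the skeletal muscle list as covariate, where 2669, 2033 and 730 had an unadjusted p under 0.05. For DMM versus control RNA at 12 weeks, edgeR called 1 transcript, DESeq2 868 with 4 members (Matn2, Matn4, Comp and Thbs3) and edgeR without a filter 56 with 1 member (Thbs3). The muscle covariate left 0, with 2976 at an unadjusted p under 0.05. For the difference of the DMM effect between 12 and 4 weeks, RNA, edgeR called 0 and DESeq2 16. For 12 versus 4 weeks in control RNA, edgeR called 1229 and DESeq2 3001 with 1 member (Matn4). Without control replicate 3 of both time points, an alternative chosen after seeing the data, edgeR called 3047 with 3 members (Matn2, Matn4 and Thbs3).

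Leaving out 1 library at a time gave 0 to 118 transcripts for DMM versus control RNA at 4 weeks, with 118 without control replicate 3, and 0 to 860 for DMM versus control RNA at 12 weeks, with 860 without control replicate 2. It gave 0 to 3 for the difference of the DMM effect between 12 and 4 weeks, RNA. For 12 versus 4 weeks in control RNA the range was 37, without control replicate 1 of 12 weeks, to 4685, without control replicate 3 of 4 weeks. For 12 versus 4 weeks in DMM RNA, 5109 in the text, it was 1682, without DMM replicate 3 of 4 weeks, to 6396. Members called ranged from 0 to 1 at 4 weeks, 0 to 2 at 12 weeks, 0 to 6 over time in control and 0 to 2 over time in DMM libraries.

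For 5mC of promoters, DMM versus control at 4 weeks, no region was called in the text and 0 to 62 with 1 sample left out, the most without control replicate 2. For 5mC of promoters, DMM versus control at 12 weeks, 85 were called, against 3, without control replicate 1, to 82 with 1 sample left out, 55 without control replicate 2 and DMM replicate 1, whose titles share a style, and 0 with unweighted means in limma (1536 at an unadjusted p under 0.05). For 5mC of gene bodies, DMM versus control at 4 weeks, 0 became 0 to 2 with 1 sample left out. For 5mC of gene bodies, DMM versus control at 12 weeks, 114 became 0, without control replicate 1, to 157, and 257 with at least 20 reads per cytosine, 739 without control replicate 2 and DMM replicate 1, and 0 with unweighted means (2937 at an unadjusted p under 0.05). No member was called in any of these.

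By the criterion of a correlation over 0.1 in every pair, the replicate numbers were not taken to pair the limbs. With 3 samples per limb and week this criterion cannot exclude pairing. Deviations of same-numbered libraries correlated by 0.365, -0.33 and 0.079 in RNA at 4 weeks, by -0.54, 0.267 and -0.26 at 12 weeks, by 0.242, 0.222 and 0.040 over gene bodies at 4 weeks and by -0.13, -0.12 and 0.065 at 12 weeks, and by 0.112 or less over promoters. Over gene bodies at 4 weeks every sample correlated best with its own number, which is a hint from the data and not from the design. With the replicate block, edgeR called 354 transcripts for DMM versus control RNA at 4 weeks and 734 for DMM versus control RNA at 12 weeks, the latter with 3 members (Matn4, Comp and Thbs3, adjusted p = 0.023, 0.025 and 0.023). It called 255 regions for 5mC of promoters, DMM versus control at 4 weeks, 30 for 5mC of promoters, DMM versus control at 12 weeks, 816 for 5mC of gene bodies, DMM versus control at 4 weeks, with 2 members (Comp and Thbs1, adjusted p = 0.0338 and 0.00901), and 0 for 5mC of gene bodies, DMM versus control at 12 weeks (1832 at an unadjusted p under 0.05). The block changed no other member's call in DMM versus control.

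The log2 fold changes that turned sign were these. For DMM versus control RNA at 4 weeks, the muscle covariate, whose score did not overlap between limbs, gave 0.84 for Comp, 0.13 for Chad and 0.42 for Ucma. Matn4 ranged there from -0.20 to 0.66 with 1 library left out. For DMM versus control RNA at 12 weeks, Matn3 was -0.38 with the replicate block and -1.07 with the muscle covariate, and levels relative to the chondrocyte list differed by -0.39 for Matn1, -0.92 for Matn3, -0.37 for Thbs2 and -0.011 for Chad. With 1 library left out, Matn1 ranged from -0.25 to 0.70 and Matn3 from -2.43 to 1.75. For the difference of the DMM effect between 12 and 4 weeks, RNA, Thbs1 ranged from -0.29 to 0.20 and Thbs2 from -0.56 to 0.068, and without control replicate 3 of both time points Matn2 was 0.092 and Thbs2 0.0060. Without those libraries Matn3 was 0.40 for 12 versus 4 weeks in control RNA. For 12 versus 4 weeks in DMM RNA, Matn3 ranged from -2.03 to 1.05 and Ucma from -0.23 to 0.39. Levels relative to the chondrocyte list, used over time after seeing the data, differed by 0.055 for Comp and 0.38 for Thbs1 in control and by -0.84 for Matn3 and -0.17 for Ucma in DMM libraries.

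The log2 odds ratios of 5mC that turned sign follow. For promoters at 4 weeks, unweighted means gave -0.0066 for Matn4 and 0.052 for Thbs3, and promoters of 500 bases before the start gave -0.026 for Chad. With 1 sample left out, Matn4 ranged from -0.10 to 0.40, Thbs1 from -0.60 to 0.12, Thbs2 from -1.41 to 0.21, Thbs3 from -0.21 to 0.11 and Chad from -0.020 to 0.11. For promoters at 12 weeks, Comp was 0.032 without control replicate 2 and DMM replicate 1, Thbs3 ranged from -0.76 to 0.85 and Chad from -0.41 to 0.27. For bodies at 4 weeks, at least 20 reads per cytosine gave 0.18 for Matn3 and 0.054 for Thbs2, unweighted means 0.019 for Matn4 and 0.00033 for Thbs3, and the replicate block 0.018 for Matn3. With 1 sample left out, Matn3 ranged from -0.22 to 0.16, Matn4 from -0.16 to 0.065, Thbs2 from -0.14 to 0.054 and Thbs3 from -0.11 to 0.025. For bodies at 12 weeks, Matn1 was -0.044 with unweighted means and Matn4 -0.099 without control replicate 2 and DMM replicate 1, and with 1 sample left out Matn3 ranged from -0.18 to 0.27, Matn4 from -0.10 to 0.11 and Thbs2 from -0.65 to 0.15.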
